A study of Mus musculus with 6 samples.

Results

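The glutathione and thioredoxin systems and the other antioxidant enzymes of the heart were followed in ventricles that overexpressed COUP-TFII. Genes were taken by name: the glutathione transferases (*Gst* and *Mgst*), every measured gene whose symbol begins with *Gpx*, *Prdx*, *Txn*, *Sod* or *Glrx*, and *Cat*, *Gclc*, *Gclm*, *Gss*, *Gsr*, *Nqo1*, *Hmox1*, *Hmox2*, *Srxn1*, *Nnt*, *Idh2*, *Nfe2l1*, *Nfe2l2* and *Keap1*. The rule gave 73 of 18193 measured genes, read by 137 of the 34945 probe sets that name 1 symbol. It used no measured value. *Prdx1*, *Prdx5* and *Prdx6* were not analysed here.

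The OE group was 3 mice of genotype Myh6-MCM; CAG-S-COUP-TFII, and the CTRL group was 3 mice with Myh6-MCM alone. Myh6-MCM (Myh6-MerCreMer in the labels) is a Cre recombinase under a cardiomyocyte promoter that tamoxifen activates, and in OE mice it switches on the COUP-TFII allele. All 6 mice were of mixed 129SvEv/C57Bl6/J strain and were given tamoxifen from 2 months of age, 40 mg per kg daily for 3 days. Ventricles were taken 16 days after the first dose, at an age labelled 2.5 months. The controls thus carried the Cre and the drug as well, and mice without Cre or without tamoxifen were not analysed here. The paper described OE hearts by the time of harvest as severely dilated and contracting poorly, much like end-stage dilated cardiomyopathy in patients. The groups therefore differed in heart failure as well as in COUP-TFII. The part of each in the differences below was not tested.

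RNA of whole ventricles was hybridised to 1 Affymetrix mouse array per heart. The deposited values, taken as log2, were centred on the median of the 6 arrays for each probe set, so 0 is that median and no value is a level of expression. Differences below are OE minus CTRL, and array values are listed in the order 1, 2, 3 within a group. Called means an adjusted p under 0.05 (limma, two-sided, Benjamini-Hochberg over 18193 genes), and SE is the moderated standard error. With 3 arrays a side the smallest p of an exact permutation test is 0.1. The probe set of *Nr2f2*, the COUP-TFII gene, with the largest difference was 11.2-fold higher in OE, and its other 5 probe sets were not called. The transgene acts in cardiomyocytes while the RNA came from all cells of the ventricle. In such samples fewer cells of a type and less RNA per cell cannot be told apart.

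Glutathione and thioredoxin are the main carriers of reducing power against peroxides. Peroxidases and peroxiredoxins hand electrons from them to hydrogen peroxide, and reductases restore them with NADPH. Superoxide dismutases make the hydrogen peroxide from superoxide, much of which arises in the respiratory chain of heart mitochondria. NRF2, encoded by *Nfe2l2*, is the transcription factor that switches on many of these genes in response to oxidants, and KEAP1 holds it in check.

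Promoter stretches are shown for genes to which the results return: the NRF2 gene itself, the glutathione synthesis gene *Gclm*, and the mitochondrial genes *Sod2*, *Prdx3* and *Gstk1*. Each is the 250 bases before the start of the RefSeq gene on GRCm38.p6, read 5′ to 3′ on the gene's strand. *Nfe2l2* lies at chr2:75704664-75704913 on the minus strand and *Gclm* at chr3:122245307-122245556 on the plus strand. *Sod2* lies at chr17:13007589-13007838 and *Gstk1* at chr6:42245685-42245934, both on the plus strand, and *Prdx3* at chr19:60874539-60874788 on the minus strand. Capitals mark TGACNNNGC, the core of the antioxidant response element that NRF2 binds, in the first pair, and AGGTCA, the core letters of sites of COUP-TFII and other nuclear receptors, in *Prdx3* and *Gstk1*. A match to the complement is in capitals as it stands on the gene's strand.
Nfe2l2: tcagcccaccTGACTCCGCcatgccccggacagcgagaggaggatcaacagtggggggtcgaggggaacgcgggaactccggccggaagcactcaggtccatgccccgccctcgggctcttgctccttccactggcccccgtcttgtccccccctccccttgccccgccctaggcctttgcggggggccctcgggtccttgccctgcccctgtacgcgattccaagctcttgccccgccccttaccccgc
Gclm: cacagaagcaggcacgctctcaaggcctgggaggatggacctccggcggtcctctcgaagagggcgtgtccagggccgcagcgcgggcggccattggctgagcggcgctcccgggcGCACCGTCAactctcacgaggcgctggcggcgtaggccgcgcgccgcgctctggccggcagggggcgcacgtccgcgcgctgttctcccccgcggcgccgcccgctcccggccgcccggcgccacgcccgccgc
Sod2: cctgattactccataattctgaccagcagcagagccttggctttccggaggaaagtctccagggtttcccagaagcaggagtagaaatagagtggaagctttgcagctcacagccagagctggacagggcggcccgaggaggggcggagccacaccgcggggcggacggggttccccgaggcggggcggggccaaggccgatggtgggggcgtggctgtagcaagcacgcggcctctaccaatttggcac
Prdx3: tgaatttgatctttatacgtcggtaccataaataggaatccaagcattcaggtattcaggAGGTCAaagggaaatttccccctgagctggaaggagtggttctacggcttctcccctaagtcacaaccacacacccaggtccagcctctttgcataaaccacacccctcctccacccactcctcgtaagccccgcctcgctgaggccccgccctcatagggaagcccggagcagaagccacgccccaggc
Gstk1: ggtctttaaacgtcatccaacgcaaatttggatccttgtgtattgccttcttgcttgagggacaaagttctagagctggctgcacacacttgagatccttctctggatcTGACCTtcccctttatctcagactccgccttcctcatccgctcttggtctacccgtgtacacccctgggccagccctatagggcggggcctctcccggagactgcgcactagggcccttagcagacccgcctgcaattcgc
Over the whole windows of 300 bases (250 before the start and 50 from it on), both strands searched, TGACNNNGC stood in 12.4% and AGGTCA in 16.3% of 32851 RefSeq windows, and by gene in 14.0% and 18.1%. A window was at hand for 64 of the 73 genes. TGACNNNGC was found in 5 of 21 genes called higher in OE (*Gstm5*, *Gclm*, *Srxn1*, *Txndc5* and *Nfe2l2*), in 1 of 10 called lower (*Gstm7*) and in 6 of 33 not called. AGGTCA was found in 3 of 21 called higher (*Gss*, *Srxn1* and *Txndc17*), in 4 of 10 called lower (*Gstm1*, *Gstk1*, *Prdx3* and *Glrx3*) and in 7 of 33 not called. The *Sod2* window holds neither string. In *Srxn1* and *Txndc2* the motifs share letters at 1 place. These matches describe the letters of the windows, and the arrays did not measure binding. In OE hearts of an earlier day, the paper reported more COUP-TFII bound at the *Sod2* locus, by chromatin immunoprecipitation. A window without the string can therefore not be read as unbound.

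Of the 73 genes, 22 were called higher and 11 lower in OE ventricles. These are 30.1% and 15.1% of the genes, beside 14.9% called higher and 11.8% called lower among all genes tested. In either direction 33 were called, or 45.2%, against 26.7% of all genes. Counts given below for smaller groups of genes stand beside these shares of all genes. One-way analysis of variance, the test named in the methods, called 14 higher (19.2%, against 7.9% of all genes) and 8 lower (11%, against 6.18%). The genes called higher held the peroxidase genes *Gpx3* and *Gpx1*, the heme oxygenase gene *Hmox1*, *Gclm* and *Nqo1*, all at 2-fold or more. The genes called lower held 6 that encode mitochondrial proteins, *Sod2* among them, and 1 gene, *Gstm7*, was lower by 2-fold or more. The median log2 difference was 0.04 over the 73 genes and −0.03 over all genes, and the median size of the difference regardless of sign was 0.29 against 0.17. By role the medians ran from −0.47 for mitochondrial NADPH supply to 0.71 for the NRF2 axis with heme oxygenase. All 33 called genes had their 3 OE arrays on one side of their 3 CTRL arrays. Counting every gene with such a gap, called or not, 28 had OE above CTRL (38.4%, against 22% of all genes) and 16 had OE below (21.9%, against 23.6%).

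The split between higher and lower depended on the scale, for the 73 genes and for all genes. Ribosomal protein genes had a median difference of 0.21 (42 genes, 16 called higher and 1 lower). When arrays were centred on these genes, the median of all genes was −0.25 in place of −0.03, and 17 of the 73 were called higher and 23 lower. All 18193 genes then gave 1302 higher and 9236 lower, in place of 2709 and 2152. Counts on this scale given below for roles, lists and markers stand beside this shift of all genes. Which scale holds was not tested.

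**Figure D1:**
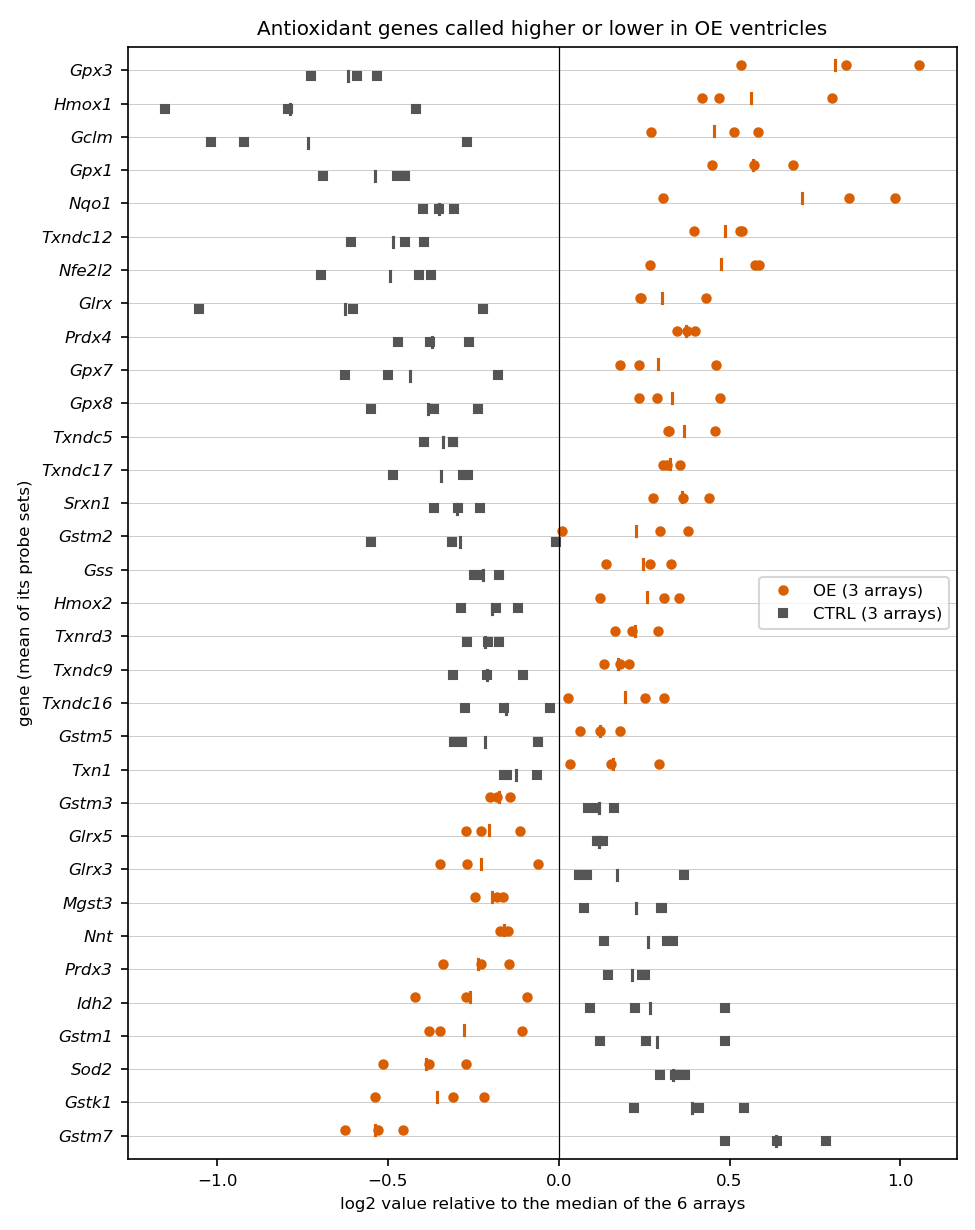
Log2 values of the 33 called antioxidant genes in each array (x axis, relative to the median of the 6 arrays; OE circles above CTRL squares in each row; vertical ticks are group means). The 22 genes called higher run from *Gpx3* (difference 1.42) to *Txn1* (0.29) and the 11 called lower from *Gstm3* (−0.29) to *Gstm7* (−1.17), with no overlap of the groups. With arrays centred on ribosomal protein genes the counts were 17 and 23, beside 1302 and 9236 among all 18193 genes.

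The mRNAs of NRF2, of *Nqo1* and of both heme oxygenases were higher in OE ventricles. In this role 4 of 6 genes were called higher and none lower, a split that became 4 higher and 2 lower on the ribosomal protein scale. *Nfe2l2* was at 0.58, 0.27 and 0.59 in OE, against −0.41, −0.37 and −0.70 in CTRL. OE 2 was the lowest OE array and still stood clear of every CTRL array. The difference was 1.96-fold (log2 0.97, SE 0.12, adjusted p = 0.00147), and its 2 probe sets gave 1.33 and 0.61, both called. *Keap1*, the gene of the protein that targets NRF2 for destruction, was at 0.06, −0.06 and −0.10 in OE and at −0.09, 0.30 and 0.13 in CTRL. Its groups overlapped, and it was not called (log2 −0.14, SE 0.11, 95% interval −0.39 to 0.10, adjusted p = 0.341). *Keap1* was called lower on the ribosomal protein scale (log2 −0.36, adjusted p = 0.0295), and over all alternatives its adjusted p ran from 0.0295 to 0.734. *Nfe2l1*, a relative of *Nfe2l2*, had a difference of −0.23 (adjusted p = 0.0707) and was also called lower on that scale.

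*Hmox1*, the inducible enzyme that breaks down heme, had array values of 0.47, 0.42 and 0.80 in OE and −0.79, −1.15 and −0.42 in CTRL. CTRL 2 was the lowest array and CTRL 3 the control nearest to OE. It was 2.55-fold higher (log2 1.35, SE 0.18, adjusted p = 0.00213). *Nqo1*, a quinone reductase, was at 0.85, 0.31 and 0.98 in OE, against −0.35, −0.40 and −0.31 in CTRL. The controls lay close together and OE 2 stood nearest to them. *Nqo1* was 2.09-fold higher (log2 1.06, SE 0.16, adjusted p = 0.00335). Under one-way analysis of variance its adjusted p lay just above 0.05 and the call ended, and the lowest over the alternatives was 0.000739. *Hmox2*, the constitutive heme oxygenase gene, was at 0.31, 0.12 and 0.35 in OE and at −0.28, −0.12 and −0.18 in CTRL. The gap between OE 2 and CTRL 2 was the narrowest, and the difference was 1.37-fold (log2 0.46, SE 0.09, adjusted p = 0.0079).

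Glutathione is built by glutamate cysteine ligase, with a catalytic subunit from *Gclc* and a modifier subunit from *Gclm*, and then by glutathione synthetase, from *Gss*. Of these genes and *Gsr*, the glutathione reductase gene, 2 of 4 were called higher and none lower, on either scale. *Gclm* was at 0.51, 0.27 and 0.58 in OE, against −1.02, −0.92 and −0.27 in CTRL. CTRL 3 lay far above the other controls and below every OE array. It was 2.28-fold higher (log2 1.19, SE 0.19, adjusted p = 0.00427), both probe sets were called, and without CTRL 3 the difference was 1.42. One-way analysis of variance ended the call (adjusted p = 0.0565, range over alternatives 0.00052 to 0.0565). *Gss* was at 0.33, 0.14 and 0.27 in OE and at −0.24, −0.25 and −0.17 in CTRL. The controls were tight and OE 2 was the lowest OE array. It was 1.38-fold higher (log2 0.47, SE 0.07, adjusted p = 0.00402).

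*Gclc* had a difference of 0.29 (95% interval 0.06 to 0.52, adjusted p = 0.0634) and *Gsr* one of 0.26 (0.04 to 0.47, adjusted p = 0.0803). In each the OE arrays lay above the CTRL arrays and 1 of 2 probe sets was called higher. *Gclc* was called without CTRL 3 and *Gsr* without CTRL 2. The difference between *Gclm* and *Gclc* was not tested.

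The glutathione peroxidases, which reduce hydrogen peroxide and lipid peroxides at the expense of glutathione, held the largest rise. Of 8 genes 4 were called higher and none lower, and 4 higher and 3 lower on the ribosomal protein scale. *Gpx3*, the secreted plasma enzyme, was at 0.84, 0.53 and 1.06 in OE, against −0.53, −0.73 and −0.59 in CTRL. Every OE array exceeded every CTRL array by more than the spread within either group. It was 2.68-fold higher (log2 1.42, SE 0.13, adjusted p = 0.000501). *Gpx1*, the most widespread peroxidase of cytosol and mitochondria, was at 0.57, 0.45 and 0.68 in OE and at −0.47, −0.69 and −0.45 in CTRL. Its arrays showed the same wide gap, and it was 2.15-fold higher (log2 1.11, SE 0.09, adjusted p = 0.000416).

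*Gpx7* and *Gpx8* encode peroxidases of the endoplasmic reticulum that act with protein disulfide isomerases during protein folding. *Gpx7* was at 0.24, 0.18 and 0.46 in OE and at −0.63, −0.50 and −0.18 in CTRL, with CTRL 3 nearest to OE. It was 1.65-fold higher (log2 0.73, SE 0.13, adjusted p = 0.00627), and the call ended under one-way analysis of variance (adjusted p = 0.0591, range over alternatives 0.00248 to 0.0591). *Gpx8* was at 0.24, 0.29 and 0.47 in OE, against −0.55, −0.36 and −0.24 in CTRL. The groups stood apart in the same order, with a 1.64-fold difference (log2 0.72, SE 0.10, adjusted p = 0.00257). *Gpx4*, the peroxidase that acts on lipid peroxides in membranes, was not called (log2 0.13, 95% interval −0.04 to 0.29, adjusted p = 0.222). *Gpx2*, *Gpx5* and *Gpx6*, known best from gut, epididymis and olfactory tissue, lay between −0.24 and −0.07 and were not called. All 3 were the peroxidase genes called lower on the ribosomal protein scale.

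Among the superoxide dismutases and catalase, 1 of 4 genes was called, on either scale. *Sod2*, the manganese superoxide dismutase of the mitochondrial matrix, was at −0.38, −0.27 and −0.51 in OE, against 0.37, 0.30 and 0.34 in CTRL. The controls lay close together and no OE array came near them. It was 1.65-fold lower in OE (log2 −0.72, SE 0.08, adjusted p = 0.000954). All 4 of its probe sets were called lower, at −0.36, −0.41, −0.91 and −1.22. The paper had already reported lower *Sod2* mRNA in OE hearts of this day and, by quantitative PCR, of earlier days. *Sod1*, the copper-zinc enzyme of the cytosol, was not called (log2 0.13, 95% interval −0.07 to 0.33, adjusted p = 0.295), although 1 of its 5 probe sets was called higher at 0.50. The extracellular *Sod3* (log2 0.02, adjusted p = 0.885) and *Cat*, the peroxisomal catalase gene (log2 0.07, adjusted p = 0.498), had overlapping groups. The 95% interval was −0.16 to 0.19 for *Sod3* and −0.10 to 0.24 for *Cat*.

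The peroxiredoxin genes went in both directions, with 2 of 4 genes of the role called higher and 1 lower on either scale. *Prdx4*, the peroxiredoxin of the endoplasmic reticulum, was at 0.40, 0.37 and 0.35 in OE and at −0.38, −0.47 and −0.26 in CTRL. The 3 OE arrays were almost level with each other. It was 1.67-fold higher (log2 0.74, SE 0.07, adjusted p = 0.000692), with probe sets from 0.15, not called, to 1.31. *Prdx3*, the peroxiredoxin of mitochondria, was at −0.34, −0.15 and −0.23 in OE, against 0.25, 0.24 and 0.15 in CTRL. OE 2 and CTRL 3 were the nearest pair, and it was 1.37-fold lower (log2 −0.45, SE 0.08, adjusted p = 0.00521). *Srxn1* encodes sulfiredoxin, which repairs overoxidised peroxiredoxins. It was at 0.44, 0.36 and 0.28 in OE and at −0.23, −0.37 and −0.30 in CTRL. The groups were well apart, with a 1.58-fold difference (log2 0.66, SE 0.07, adjusted p = 0.00105) and 3 of 4 probe sets called. *Prdx2*, a cytosolic peroxiredoxin gene, had overlapping groups (log2 difference under 0.01 in size, 95% interval −0.30 to 0.30).

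In the thioredoxin system itself 2 of 6 genes were called higher and none lower, and 1 higher and 1 lower on the ribosomal protein scale. *Txnrd3*, the thioredoxin glutathione reductase gene best known from testis, was at 0.16, 0.22 and 0.29 in OE and at −0.27, −0.21 and −0.17 in CTRL. Both groups were tight, and it was 1.36-fold higher (log2 0.44, SE 0.07, adjusted p = 0.0036). *Txn1*, cytosolic thioredoxin, was at 0.15, 0.03 and 0.29 in OE, against −0.06, −0.15 and −0.16 in CTRL. Only a narrow gap parted OE 2 from CTRL 1. The call on *Txn1* (1.22-fold, log2 0.29, SE 0.08, adjusted p = 0.0392) ended without OE 1, OE 3, CTRL 1, CTRL 2 or CTRL 3, each left out alone (adjusted p from 0.064 to 0.102), and with one-way analysis of variance (0.0935). Its range over alternatives was 0.00244 to 0.471, and its probe sets gave 0.61, called higher, and −0.04.

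The cytosolic and mitochondrial reductase genes *Txnrd1* and *Txnrd2* both had a difference of 0.04, with 95% intervals of −0.14 to 0.21 and −0.11 to 0.20. Each had 1 probe set called higher. The other *Txnrd1* probe sets lay below 0, and those of *Txnrd2* on either side of it. *Txn2*, mitochondrial thioredoxin, had its OE arrays below its CTRL arrays and was not called (log2 −0.22, SE 0.07, adjusted p = 0.0624). It was the gene of this role called lower on the ribosomal protein scale. *Txnip*, which binds and inhibits thioredoxin, was at 0.15, −0.36 and −0.15 in OE and at 0.58, 0.51 and −1.15 in CTRL. CTRL 3 lay far below the other 5 arrays. *Txnip* was not called (log2 −0.10, SE 0.42, adjusted p = 0.876), but without CTRL 3 it was called lower (log2 −0.67, adjusted p = 0.0185). Its range over alternatives was 0.0185 to 0.984.

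**Figure D2:**
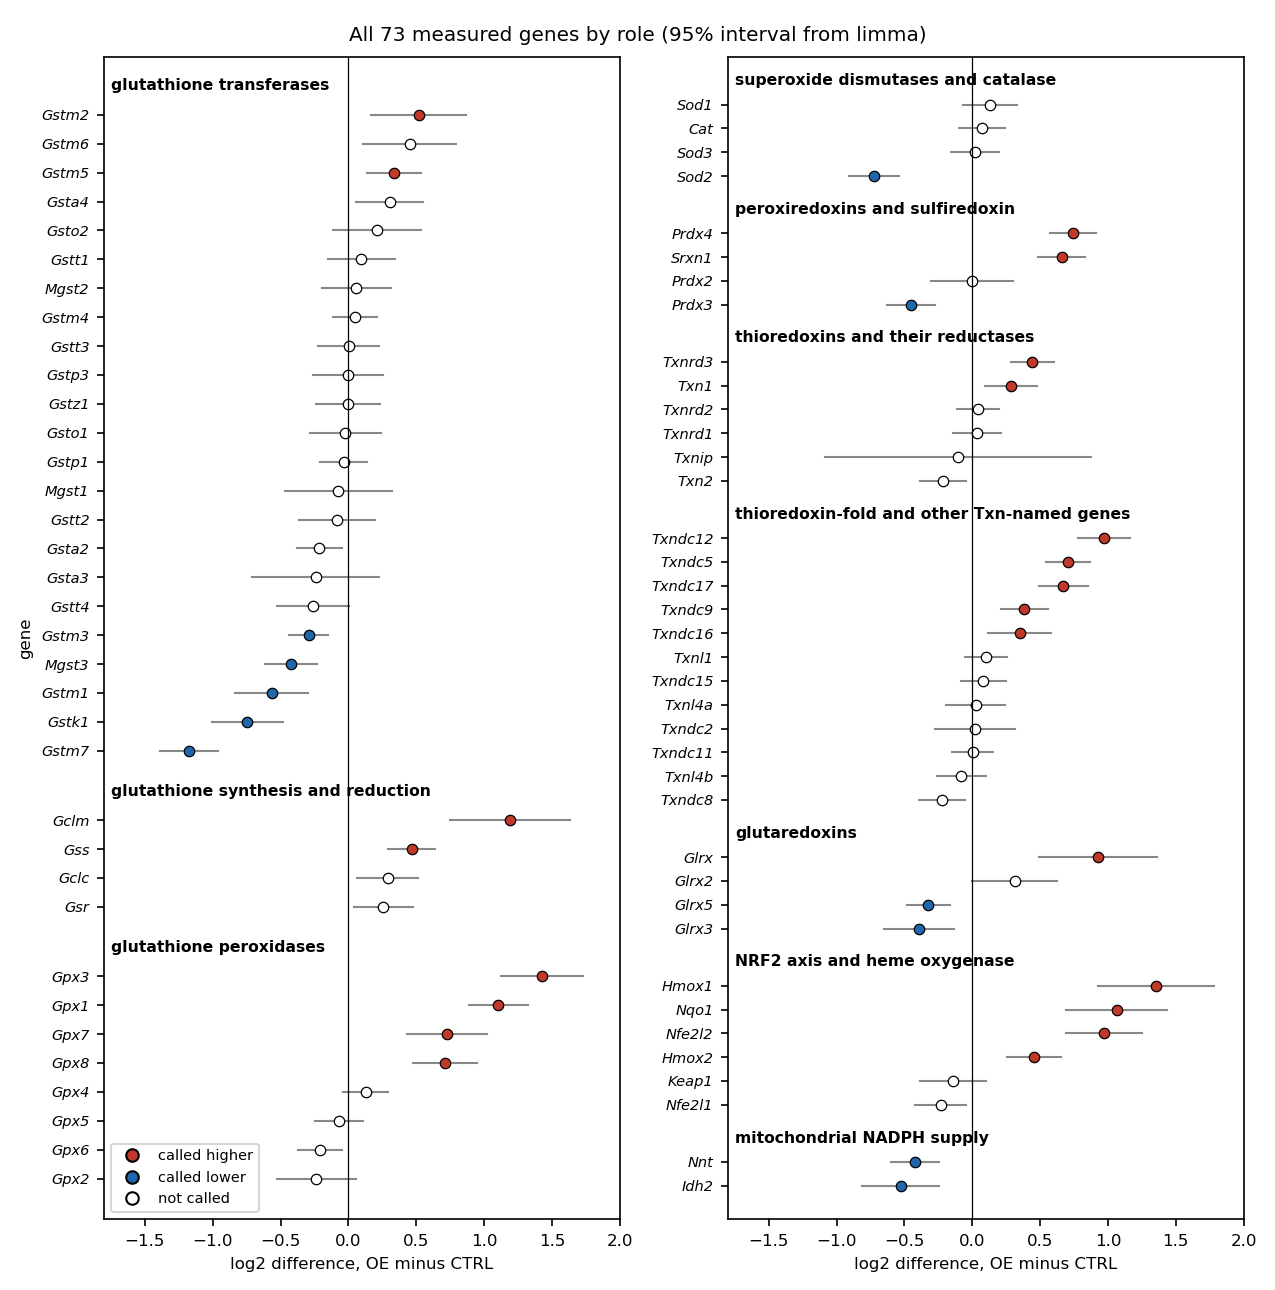
Difference between OE and CTRL for all 73 genes by role (x axis, log2, OE minus CTRL; points are limma estimates with 95% intervals; red called higher, blue called lower, white not called). Calls in both directions stand in the transferases, the peroxiredoxins and the glutaredoxins; centred on ribosomal protein genes, 6 roles hold calls in both directions, since 3 peroxidases, *Txn2*, 3 *Txn*-named genes, *Keap1* and *Nfe2l1* were then called lower, while no transferase was called higher.

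Other genes named after thioredoxin encode proteins with the thioredoxin fold or parts of the splicing machinery. Of 12 such genes 5 were called higher and none lower, and 3 higher and 3 lower on the ribosomal protein scale. *Txndc12*, an endoplasmic reticulum oxidoreductase gene, was at 0.54, 0.53 and 0.39 in OE, against −0.45, −0.39 and −0.61 in CTRL. No array of either group came near 0, and it was 1.96-fold higher (log2 0.97, SE 0.08, adjusted p = 0.000389). *Txndc5*, a disulfide isomerase of the same compartment, was at 0.32, 0.46 and 0.32 in OE and at −0.31, −0.39 and −0.31 in CTRL. It was 1.63-fold higher with little spread in either group (log2 0.70, SE 0.07, adjusted p = 0.000718).

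*Txndc17*, a cytosolic thioredoxin-like gene, was at 0.31, 0.32 and 0.36 in OE, against −0.28, −0.49 and −0.27 in CTRL. It was 1.59-fold higher (log2 0.67, SE 0.08, adjusted p = 0.00122). *Txndc9* was at 0.18, 0.21 and 0.13 in OE and at −0.11, −0.31 and −0.21 in CTRL. The groups lay apart (1.30-fold, log2 0.38, SE 0.07, adjusted p = 0.00937), but on the ribosomal protein scale the call ended (log2 0.16, adjusted p = 0.104, range over alternatives 0.00676 to 0.104). The fifth, *Txndc16*, was called at 0.35 (adjusted p = 0.0372), and this call ended without OE 1, OE 3, CTRL 1 or CTRL 2, each left out alone (range over alternatives 0.0242 to 0.251). *Txndc11*, which helps the maturation of the enzyme that makes hydrogen peroxide in the thyroid, had no difference beyond 0.01 and was called lower at −0.22 on the ribosomal protein scale.

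The glutaredoxin genes also divided. Of 4 genes, 1 was called higher and 2 lower, on either scale. *Glrx*, the cytosolic enzyme that removes glutathione from proteins, was at 0.24, 0.24 and 0.43 in OE and at −0.60, −1.05 and −0.22 in CTRL. The controls were widely spread, with CTRL 2 lowest and CTRL 3 highest. It was 1.90-fold higher (log2 0.93, SE 0.19, adjusted p = 0.0105), and one-way analysis of variance ended the call (adjusted p = 0.0843, range over alternatives 0.00247 to 0.0843). *Glrx5*, a mitochondrial protein of iron-sulfur cluster assembly, was at −0.23, −0.11 and −0.27 in OE, against 0.13, 0.12 and 0.11 in CTRL. The controls were nearly identical, and it was 1.25-fold lower (log2 −0.32, SE 0.07, adjusted p = 0.0127). *Glrx3*, a cytosolic iron-sulfur glutaredoxin gene, was at −0.35, −0.27 and −0.06 in OE and at 0.08, 0.37 and 0.06 in CTRL. OE 3 and CTRL 3 lay close together, and the call (1.32-fold lower, log2 −0.40, SE 0.11, adjusted p = 0.0345) ended without OE 1, OE 2, CTRL 1 or CTRL 2, each left out alone. One-way analysis of variance also ended it (adjusted p = 0.123, range over alternatives 0.00384 to 0.123). *Glrx2* was not called (log2 0.31, SE 0.13, adjusted p = 0.125), with CTRL 1 at −0.58 and the other arrays from −0.08 to 0.09.

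Glutathione transferases join glutathione to reactive compounds, and they were the largest role, with 23 genes. Of these 2 were called higher and 5 lower, beside 14.9% and 11.8% of all genes. On the ribosomal protein scale none was called higher and 8 lower, beside 1302 and 9236 of all 18193 genes. *Gstm7* had the largest fall of the 73 genes. It was at −0.63, −0.46 and −0.53 in OE, against 0.78, 0.64 and 0.49 in CTRL. The groups were separated by more than the range of either, and the difference was 2.26-fold (log2 −1.17, SE 0.09, adjusted p = 0.000301). Both probe sets were called, at −0.50 and −1.85. *Gstk1*, the kappa class enzyme of mitochondria and peroxisomes, was at −0.54, −0.22 and −0.31 in OE and at 0.54, 0.41 and 0.22 in CTRL. OE 2 and CTRL 3 were the nearest pair, and it was 1.68-fold lower (log2 −0.75, SE 0.11, adjusted p = 0.00332).

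*Gstm1*, the major mu class enzyme of liver and other tissues, was at −0.38, −0.35 and −0.11 in OE, against 0.49, 0.12 and 0.25 in CTRL. OE 3 stood nearest to the controls. It was 1.48-fold lower (log2 −0.57, SE 0.12, adjusted p = 0.0108), with 3 of 4 probe sets called, and one-way analysis of variance ended the call (adjusted p = 0.0714, range over alternatives 0.00108 to 0.0714). *Mgst3*, a microsomal transferase gene, was at −0.16, −0.24 and −0.18 in OE and at 0.30, 0.07 and 0.30 in CTRL, without overlap. It was 1.34-fold lower (log2 −0.42, SE 0.08, adjusted p = 0.00949). *Gstm3*, the fifth, was called at −0.29 (adjusted p = 0.0131), and this call ended without probe sets that can read related transcripts.

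Both transferase genes called higher were of the mu class too. *Gstm2* was at 0.30, 0.01 and 0.38 in OE, against −0.01, −0.31 and −0.55 in CTRL, so that OE 2 and CTRL 1 almost touched. *Gstm5* was at 0.12, 0.06 and 0.18 in OE and at −0.06, −0.28 and −0.31 in CTRL, again with OE 2 and CTRL 1 nearest. *Gstm2* was 1.43-fold higher (log2 0.52, SE 0.15, adjusted p = 0.0387) and *Gstm5* 1.26-fold (log2 0.34, SE 0.09, adjusted p = 0.0238). Each call ended without OE 1, OE 3, CTRL 2 or CTRL 3, left out alone, under one-way analysis of variance (adjusted p = 0.150 for *Gstm2* and 0.0757 for *Gstm5*) and on the ribosomal protein scale (0.0951 and 0.235). The ranges over alternatives were 0.0201 to 0.150 for *Gstm2* and 0.0145 to 0.235 for *Gstm5*. *Gstm4* and *Gstm6* were not called. Mu class genes are close copies of each other, so how far a probe set reads its neighbours is uncertain here. The alpha, pi, theta, omega and zeta class genes, *Mgst1* and *Mgst2* were all uncalled, with differences from −0.26 (*Gstt4*) to 0.30 (*Gsta4*).

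*Nnt* and *Idh2* encode the transhydrogenase and the isocitrate dehydrogenase that make NADPH inside mitochondria, from which glutathione and thioredoxin are reduced there. Both were called lower, on either scale. *Nnt* was at −0.17, −0.16 and −0.15 in OE, against 0.13, 0.33 and 0.32 in CTRL. The OE arrays were level with each other and CTRL 1 was the lowest control. It was 1.34-fold lower (log2 −0.42, SE 0.08, adjusted p = 0.00661), with 1 of 3 probe sets called, at −0.83. C57BL/6J mice are known to carry a deletion in *Nnt*, and which alleles these mixed-strain mice had is not given in the sources used here. *Idh2* was at −0.09, −0.27 and −0.42 in OE and at 0.09, 0.49 and 0.22 in CTRL. OE 1 and CTRL 1 were the nearest pair. It was 1.44-fold lower (log2 −0.53, SE 0.12, adjusted p = 0.0178), and the call ended without OE 2 (0.0507) or OE 3 (0.0566) and with one-way analysis of variance (0.0934), the range over alternatives being 0.0036 to 0.0934.

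**Figure D3:**
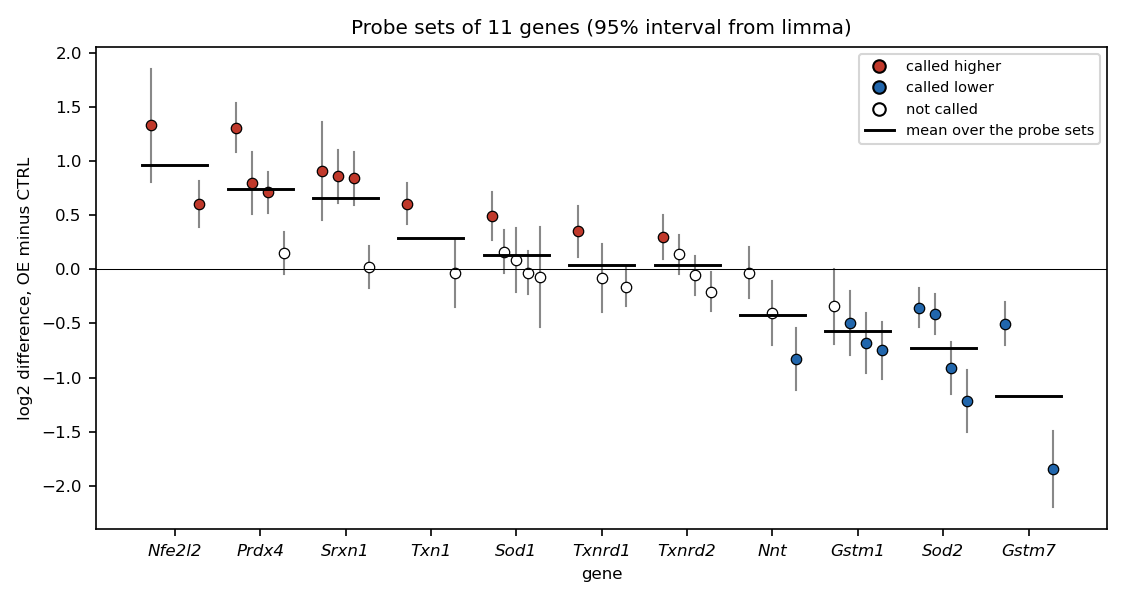
Difference between OE and CTRL for each probe set of 11 genes (y axis, log2, OE minus CTRL; points are limma estimates with 95% intervals; red called higher, blue called lower, white not called; black bars are the gene means). The 4 *Sod2* probe sets run from −1.22 to −0.36 and all were called lower, whereas *Txn1*, *Sod1*, *Txnrd1*, *Txnrd2* and *Nnt* each had 1 called probe set beside others that were not.

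At the level of probe sets 43 of 137 were called higher (31.4%, against 13.9% of all probe sets) and 19 lower (13.9%, against 10.4%). No gene had probe sets called in both directions. Where several probe sets read a called gene, which held for 18 genes, 11 had every probe set called the same way. The 6 uncalled genes with a called probe set were *Gclc*, *Gsr*, *Sod1*, *Txnl1*, *Txnrd1* and *Txnrd2*, all with it higher.

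The genes were also sorted by where their proteins reside. This grouping was made from textbook knowledge after the values had been seen and is given without a test. Of 9 genes of mitochondrial proteins none was called higher and 6 were called lower (*Sod2*, *Prdx3*, *Gstk1*, *Glrx5*, *Nnt* and *Idh2*), with a median of −0.42. *Txn2*, *Txnrd2* and *Glrx2* were the other 3. *Gpx1*, called higher, and *Gpx4*, not called, encode proteins of both cytosol and mitochondria and were left among the remaining genes. *Gstk1*, of mitochondria and peroxisomes, was counted as mitochondrial. The absence of a mitochondrial gene called higher, the 6 calls lower and the median of −0.42 rest on these choices. Of 13 genes of the endoplasmic reticulum 8 were called higher (*Hmox1*, *Hmox2*, *Prdx4*, *Gpx7*, *Gpx8*, *Txndc5*, *Txndc12* and *Txndc16*) and 1 lower (*Mgst3*), with a median of 0.46. Of 4 genes of secreted proteins only *Gpx3* was called, and the remaining 47 genes gave 13 higher and 4 lower with a median of 0.05. On the ribosomal protein scale the counts were none higher and 7 lower for mitochondria, and 7 higher and 2 lower for the endoplasmic reticulum.

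OE 2 was the OE array nearest to the controls in 20 of the 33 called genes (60.6%, against 41.3% of all 4861 called genes). CTRL 3 was the control nearest to OE in 17 (51.5%, against 43.3%). Over all genes, pairs of arrays differed by a root mean square of 0.19 to 0.22 within OE, of 0.21 to 0.23 within CTRL and of 0.37 to 0.43 across the groups.

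Further gene lists around these systems were read in the same fit. Their counts stand beside 26.7% of all genes called, 14.9% higher and 11.8% lower. Of 20 other NRF2 targets, 5 were called higher and none lower (median 0.22), and 4 higher and 2 lower on the ribosomal protein scale. *Akr1b8*, an aldose reductase gene, averaged 1.12 in OE and −1.26 in CTRL, with groups far apart (log2 2.38, SE 0.13, adjusted p = 9.81e-05). *Pgd*, the phosphogluconate dehydrogenase gene of the pentose phosphate route to NADPH, differed by 1.05 (adjusted p = 0.000179), *Ugdh* by 0.83, *Taldo1* by 0.66 and *Tkt* by 0.28. Not called were *Sqstm1* (log2 0.44, adjusted p = 0.0574), *Me1* (log2 difference under 0.01 in size) and *Abcc1* (log2 −0.19). Without CTRL 3, 8 of the 20 were called higher, and under one-way analysis of variance 4, *Tkt* losing the call.

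Cysteine supply and glutathione turnover, with 15 genes, had 1 called higher and 5 lower (median −0.24). *Slc3a2*, the heavy chain of the cystine transporter and of other amino acid carriers, was higher (log2 0.65, SE 0.08, adjusted p = 0.00163). Its light chain for cystine, *Slc7a11*, was not called (log2 −0.05, adjusted p = 0.708). *Cth*, which makes cysteine from cystathionine, was at −1.18, −0.25 and −0.20 in OE, against 0.20, 1.03 and 0.88 in CTRL (log2 −1.25, SE 0.30, adjusted p = 0.0198). *Ggt5* and *Dpep1*, of extracellular glutathione breakdown, *Cbs* and the transporter gene *Slc1a1* were called lower at −0.60, −0.64, −0.33 and −0.28. One-way analysis of variance left 1 gene called lower, *Ggt5* (adjusted p = 0.0377), and *Slc3a2* called higher, with *Cth* at 0.122. Leaving out any 1 array left 2 or 3 genes of this list called lower, and 9 were called lower on the ribosomal protein scale.

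Of 12 genes of NADPH supply, which share *Pgd* and *Me1* with the NRF2 targets, 4 were called higher and 2 lower, with a median of −0.06. *Me3*, a mitochondrial malic enzyme gene, was at −0.60, −0.53 and −0.70 in OE and at 0.64, 0.67 and 0.53 in CTRL (log2 −1.22, SE 0.08, adjusted p = 0.000143). *Nadk2*, the mitochondrial NAD kinase gene, was lower at −0.45 while the cytosolic *Nadk* was higher at 0.31, and *Me2*, also mitochondrial, was higher at 0.59. On the ribosomal protein scale 2 of this list were called higher and 7 lower, and without OE 1, OE 3 or CTRL 2, each left out alone, 2 were called higher. *Pgd* and *Me2* kept the call higher and *Me3* and *Nadk2* the call lower under one-way analysis of variance.

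Of 16 genes that make oxidants, 4 were called higher and 2 lower (median under 0.01), and 1 higher and 8 lower on the ribosomal protein scale. Without OE 2 or OE 3, 2 were called higher. *Nox4*, the NADPH oxidase of cardiomyocytes and fibroblasts that yields hydrogen peroxide, was at 1.22, 0.57 and 1.23 in OE, against −1.30, −0.90 and −0.57 in CTRL. OE 2 and CTRL 3 were again the nearest pair (log2 1.93, SE 0.22, adjusted p = 0.0012). Of the monoamine oxidase genes, *Maob* was called lower at −0.96 (adjusted p = 0.00198). *Maoa* was called higher at 0.52 (adjusted p = 0.0467), although OE 1 lay just below CTRL 3 and its adjusted p was 0.167 under one-way analysis of variance. By that test 2 genes of the list were called higher, *Nox4* and *Noxo1*, and 2 lower. *Cybb*, the oxidase of phagocytes, was not called (log2 −0.04, adjusted p = 0.738).

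Selenium enters the thioredoxin reductases and some glutathione peroxidases, *Gpx1*, *Gpx3* and *Gpx4* among them, as selenocysteine, while *Gpx7* and *Gpx8* encode enzymes with cysteine in its place. Of 23 other selenoprotein and selenocysteine synthesis genes, 9 were called higher and none lower (median 0.16), and 5 higher and 6 lower on the ribosomal protein scale. *Selenom* of the endoplasmic reticulum was at 0.72, 0.67 and 0.63 in OE and at −0.91, −1.25 and −0.63 in CTRL (log2 1.60, SE 0.14, adjusted p = 0.000468). *Dio2*, which activates thyroid hormone, differed by 1.30 (adjusted p = 0.000293) and *Selenoh*, *Selenow*, *Selenos* and *Selenok* by 0.67, 0.60, 0.47 and 0.42. Under one-way analysis of variance 5 of the list were called higher, *Selenoh* and *Selenos* not among them. Among 7 methionine sulfoxide reductase and sestrin genes *Msrb1* was higher (log2 0.39), and the mitochondrial *Msrb2* (log2 −0.74, adjusted p = 0.000509) and *Sesn1* (log2 −0.46) lower. Among 7 metallothionein, ferritin and related genes *Mt3* (log2 0.54) and *Park7* (log2 0.33) were called higher, while *Mt1*, *Mt2* and *Fth1* had overlapping groups. The median was −0.07 for the reductases and sestrins and 0.10 for the metallothionein list. Without OE 2, OE 3, CTRL 1 or CTRL 2 only 1 reductase or sestrin gene was called lower, and without OE 1, OE 3, CTRL 1 or CTRL 2 only 1 of the metallothionein list was called higher. Neither list had a gene called higher under one-way analysis of variance (adjusted p = 0.0825 for *Mt3*, 0.0559 for *Park7* and 0.0561 for *Msrb1*) and *Msrb2* alone was called lower. On the ribosomal protein scale the reductases and sestrins gave none higher and 3 lower, and the metallothionein list 1 higher and 3 lower.

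**Figure D4:**
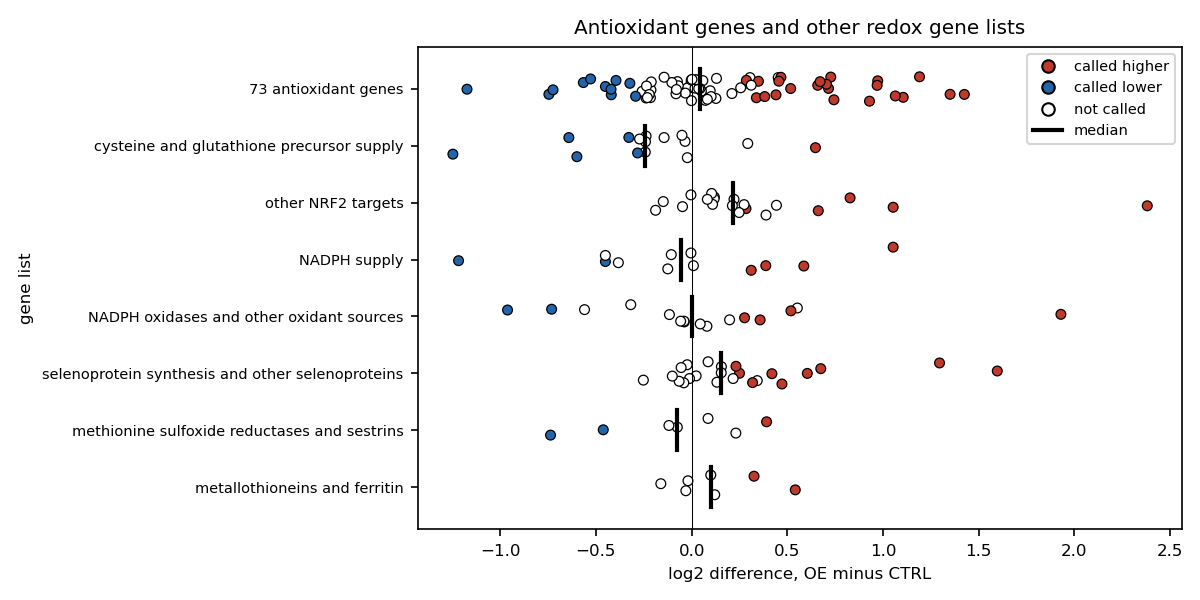
Difference between OE and CTRL for the 73 antioxidant genes and the genes of 7 other lists (x axis, log2, OE minus CTRL; 1 point per gene, spread vertically for sight; red called higher, blue called lower, white not called; black bars are medians). The medians are 0.04 for the antioxidant genes, 0.22 for other NRF2 targets and −0.24 for cysteine and glutathione precursor supply. Centred on ribosomal protein genes they were −0.17 for the first, near 0 for the second and −0.46 for the last, beside −0.25 for all genes.

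Markers of cell types moved with the groups. Of 8 cardiomyocyte markers 6 were called lower and none higher, and their mean lay from −0.29 to −0.21 in OE and from 0.21 to 0.32 in CTRL. Of 8 fibroblast markers 5 were called higher and none lower, with means of 0.23 to 0.46 in OE and −0.74 to −0.26 in CTRL. The 5 were *Postn*, *Col3a1*, *Col1a2*, *Col1a1* and *Lum*, with differences from 2.66 down to 0.49. *Tcf21*, *Pdgfra* and *Dcn* were not called, at 0.24, 0.15 and 0.03. Of 8 endothelial markers 4 were called lower, with means of −0.21 to −0.05 in OE and 0.16 to 0.35 in CTRL. Of 8 macrophage markers 2 were called higher, with means of −0.07 to 0.30 in OE and −0.37 to −0.01 in CTRL. Smooth muscle markers gave 3 higher and 1 lower of 4, with means of 0.67 to 0.87 in OE and −1.08 to −0.61 in CTRL. *Cnn1* had by far the largest difference (log2 4.94), before *Acta2* (1.08) and *Tagln* (0.82), and *Myh11* was the gene called lower (−0.34). Markers of red blood cells, lymphocytes and neutrophils gave no call among 3, 4 and 4 measured. On the ribosomal protein scale the calls were 7 lower for cardiomyocytes, 5 higher for fibroblasts, 8 lower for endothelium, none higher and 1 lower for macrophages and 3 higher and 1 lower for smooth muscle. Red blood cell, lymphocyte and neutrophil markers then gave 2, 1 and 1 lower. Since the values hold no level, which markers are absent could not be read. The part of these shifts in the antioxidant genes was not tested.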

How the data were processed

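Per the labels and the methods, RNA of 6 whole ventricles (3 OE, 3 CTRL) was measured on Affymetrix whole-genome mouse arrays. The authors used GeneSpring GX to summarize the arrays by RMA, quantile normalized them and set the median of all samples as baseline. Software versions, and the base of the logarithm, are not given in the sources used here. What was deposited, from −4.29 to 3.54, was taken as log2, since RMA gives these. No probe set median was further from 0 than 5e-07. The number of arrays limits the precision.

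Of 45101 probe sets, 932 name several symbols, 9211 have no gene here and 64 are array controls, most of which are also among those without a gene, and these were not used. A gene's value is the mean of its probe sets. Of the gene IDs, 162 had no entry in the reference table, none of them among the 73 genes, and kept the symbol of the array annotation. Groups were taken from the sample titles and compared by limma 3.58.1 (lmFit, eBayes) under R 4.3.3, two-sided, without covariates, with Benjamini-Hochberg adjustment over 18193 genes. Promoter windows were matched by gene ID. Replicate numbers were examined as pairs. Correlations of deviations were 0.07, −0.12 and 0.03 for equal numbers and −0.11 to 0.08 for unequal ones. No pairing was seen, but 3 arrays a group cannot exclude one.

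The genes, roles, lists and markers were chosen with earlier results of these data known. Genes described array by array are, in each role, the called genes with the 4 largest rises and the 4 largest falls, besides *Sod2*, *Nfe2l2* and *Keap1*. *Txnip* was added after its values were seen. Other genes were named by the counts they belong to, or after their values were seen. Alternatives were one-way analysis of variance (the test the methods name), array weights, dropping the probe sets marked _x_at or _s_at, the probe set of largest variance, centring on 42 ribosomal protein genes or on array medians, omission of each array in turn, the replicate number as a block, a fold limit of 1.2 and a threshold of 0.01. The test was run on simulated data for OE against CTRL over 18193 genes, 200 of them changed. There limma recovered 56.7% of genes changed by log2 0.5, 86.6% by 1 and 98.5% by 2, with 7 false calls. The simulated noise was independent between genes and arrays, and far more genes, 4861, were called in the data. These rates therefore do not describe the calls reported here. Python 3.11.15, pandas 2.3.3 and matplotlib 3.10.9 were used.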

Additional observations from a re-analysis of the deposited data

How the results depend on the processing

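Of the 33 called genes, 19 were called in every alternative run and 14 lost the call in at least 1, which includes the stricter threshold. One-way analysis of variance called 14 genes higher and 8 lower. Centring on ribosomal protein genes called 17 higher and 23 lower, with a median of −0.17. All genes then gave 1302 higher and 9236 lower, with a median of −0.25. On that scale *Txndc11* reversed to −0.22 (adjusted p = 0.0358). At an adjusted p under 0.01, 17 were higher and 6 lower, and the share of all genes at that threshold was not counted. Leaving out 1 array at a time gave 18 to 23 higher, 10 to 13 lower and a median of 0.05 to 0.07, while all genes gave 1830 to 2371 higher and 1243 to 1731 lower, against 2709 and 2152 with every array. With the replicate number as a block, 23 were higher and 10 lower, *Txn1* and *Glrx3* losing and *Gstm6* and *Gclc* gaining the call, and 2369 of all genes were higher and 1679 lower. The numbers do not pair the arrays. Array weights, array median centring and the fold limit of 1.2 changed no call among the 73 genes, but moved counts in the other lists by up to 2. Among the 73, the probe set of largest variance added 4 calls and lost none. No filter on expression was run, since the values hold no level. Which scale or test is the more accurate was not tested.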
